A study of Saccharomyces cerevisiae with 49 samples.

Results

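The histone genes described here are 7 core histone genes, HTA1 and HTA2 (H2A), HTB1 and HTB2 (H2B), HHT1 and HHT2 (H3) and HHF1 (H4), together with 3 genes of other histones, the linker histone HHO1, the H2A variant HTZ1 (H2A.Z) and the centromeric H3 variant CSE4. They were chosen by name: each probe set whose symbol in the platform annotation is one of these genes was taken, which gave 10 genes of 5449 Saccharomyces cerevisiae genes on the array. The 10 genes have 11 probe sets, because HTA2 has a pair of them. The HTA2 probe set with the higher mean signal carries the suffix s_at, which the array maker gives to probes that match more than 1 transcript, and stands for the gene in counts of genes. The other carries the suffix at and is given beside it, because the 2 sets disagreed. HHF1 is also measured by an s_at set. Histone gene copies are nearly identical in their coding sequence, so the signal of any member may include transcripts of its copy. HHF2, the other H4 gene, was not analysed here.

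Nucleosomes wrap DNA around an octamer of the core histones, and their genes are known in budding yeast for transcription in a burst at the time of DNA replication, when new chromatin is assembled. The core genes lie in divergent pairs of an H2A with an H2B gene or an H3 with an H4 gene, driven from a shared promoter region. The HIR complex, a corepressor, holds these pairs down outside S phase except for the HTA2 and HTB2 pair. Linker and variant histones have single genes and other uses: Hho1 binds linker DNA, H2A.Z replaces H2A near promoters, and Cse4 replaces H3 at centromeres.

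The samples came from 1 continuous culture of the haploid strain CEN.PK113-7D, mating type a, which oscillated with a period of about 4 h. All samples share this genotype, medium and fermentor culture, and no treated or mutant group exists. From 14 h to 18 h of the run, RNA was taken every 5 min, and each of the 49 samples was hybridised to 1 array of the type Affymetrix Yeast Genome 2.0. A phase angle is given for every sample, from 244.11 to 614.63 degrees. What phase 0 stands for is not given in the labels used here. Samples of the first pass were placed in 6 windows of 60 degrees: phase 0-60, 60-120, 120-180, 180-240 and 240-300 with 8 samples each and phase 300-360 with 7. A further 2 samples, at 246.97 and 254.63 degrees of the next cycle, form the second pass. Within a window the samples follow each other in time in the same culture. Each p-value reflects only the spread between samples of that culture, pooled over the windows or taken around the fitted cosine. The tests treated successive samples as independent, and there was no second culture to compare. In a culture, a larger share of cells with a transcript and more transcript per cell cannot be told apart.

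The deposited signals carry no common scale: array medians over S. cerevisiae probe sets ran from 1450 to 2582, a log2 range of 0.83. All arrays were therefore scaled to a common median, and signals below are on that scale unless called deposited. Of 7 genes expressed in mating type a cells, the median signals ran from 1025 to 8794, and those of 4 genes of alpha cells ran from 88.7 to 1287. Of the 11 histone probe sets, 10 were highest in the sample at 93.89 degrees, whose array was multiplied by 1.24 in the scaling. As deposited, none of the 11 was highest there, and after quantile normalization 1 was. The share of all probe sets highest in that sample was not counted. Genes that are no histones, such as HAC1 and TUB1, were highest there too. Leaving that sample out lost no call of a histone gene.

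Most histone transcripts moved with the phase angle, but by very unequal amounts, with a fitted cosine from 1.14-fold for HTA1 to 6.41-fold for HTA2 at, and with 2 harmonics up to 8.11-fold for HTA2 at. Of the 10 genes, 9 followed a cosine of the phase angle at an adjusted p under 0.05 (limma F test, 49 samples, Benjamini-Hochberg over 5470 probe sets). Of all probe sets tested, 88.5% did so, so the count of histone genes was near the background. The sizes lay on both sides of the background. The median fitted ratio of peak to trough was 1.79 over the 7 core genes and 1.95 over HHO1, HTZ1 and CSE4. Over all probe sets tested it was 1.45. HTA1, HTA2 s_at, HTB1 and CSE4 were below that value, at 1.14-fold, 1.27-fold, 1.29-fold and 1.24-fold. A ratio of at least 2-fold was fitted for HTA2 at, HTB2, HHT2 and HHO1, and for 21.8% of all probe sets. HTA1 alone among the genes was not called. Short pulses are flattened by a single cosine: with 2 harmonics the fitted ratio was 1.46-fold for HTA1, 1.57-fold for HTA2 s_at and 1.57-fold for HTB1. In that fit the median core gene was HHT1 at 2.01-fold and the median of the other 3 was HTZ1 at 2.21-fold, against 1.79-fold over all probe sets, of which 94.4% were called.

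**Figure D1:**
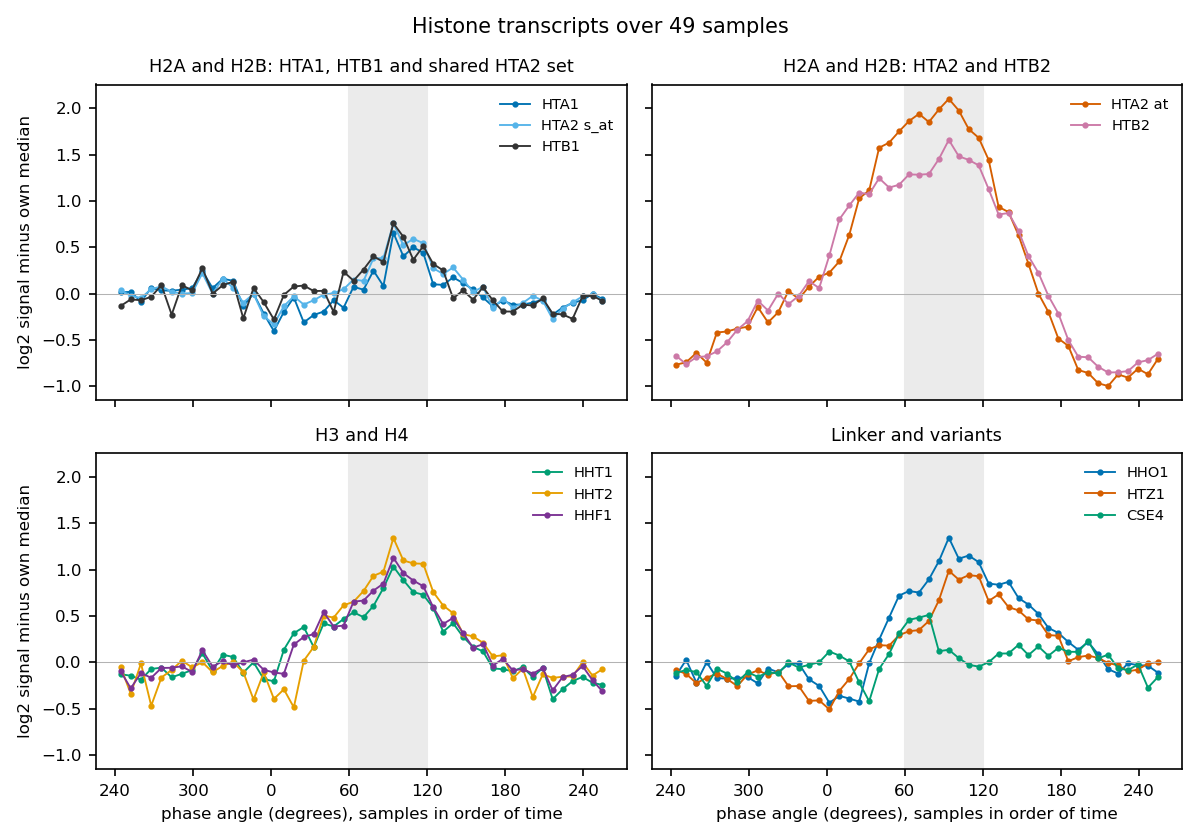
Log2 signal of each histone probe set minus its own median (vertical axis, log2 units) against the phase angle (horizontal axis, degrees, samples in order of time), 1 point for each of 49 samples, after scaling to a common median. The grey band is phase 60-120, where every probe set was high. HTA2 at and HTB2 swing over a range of 8.57-fold and 5.69-fold between single samples, while HTA1, HTA2 s_at and HTB1 swing by 2.05-fold to 2.13-fold.

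HTB2, an H2B gene, showed the clearest course of the genes. Its signal had a median of 12720.4 in phase 0-60, 16017 in phase 60-120, 8783 in phase 120-180, 3537 in phase 180-240, 3840.4 in phase 240-300 and 5909 in phase 300-360. The 8 samples of phase 60-120 lay between 14632 and 18977, all above the highest of the other 39 first-pass samples, at 14251. The 8 samples of phase 180-240 lay between 3334 and 4250.0 and overlapped those of phase 240-300, so these neighbours in the order cannot be separated by their ranges. HTB2 was 2.61-fold higher in phase 60-120 than in the mean of the other windows (log2 difference 1.38, SE 0.10, adjusted p = 6.43e-15) and lower in phase 180-240 (log2 difference -1.20, SE 0.10, adjusted p = 1.1e-12). The cosine fit gave a log2 ratio of peak to trough of 2.23 (SE 0.08), a peak at 72.3 degrees (SE 2.1) and an R2 of 0.948. HTB2 was also high in phase 0-60, by a log2 difference of 0.88 (SE 0.10, adjusted p = 3.01e-11).

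HTA2 at, the probe set of the H2A gene that neighbours HTB2, followed nearly the same course. It had a median signal of 5706 in phase 0-60, 10137 in phase 60-120, 3796 in phase 120-180, 1491 in phase 180-240, 1886 in phase 240-300 and 2607 in phase 300-360. In phase 60-120 the 8 samples lay between 8706 and 11648, and 7 of them were above all other first-pass samples. In phase 180-240 the 8 samples lay between 1360.0 and 1837, and 7 of them were below all other first-pass samples, although 1 sample of the second pass, at 1485, lay within their range. The log2 difference was 1.89 in phase 60-120 (SE 0.15, 3.72-fold, adjusted p = 6.06e-14) and 0.86 in phase 0-60 (SE 0.15, adjusted p = 8e-07). Its fitted log2 ratio of peak to trough was 2.68 (SE 0.13), with a peak at 72.8 degrees (SE 2.8), and 2 harmonics in place of the cosine raised its R2 to 0.993. HTA2 at and HTB2 correlated at r = 0.979 over the 49 samples, which share the culture and the arrays. HTA2 at and HTB2 were the only histone probe sets of the 11 high in phase 0-60, where 39.8% of all probe sets were high.

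HTA1 and HTB1, the other divergent H2A and H2B pair, had a flatter course. HTB1 had a median signal of 12269.8 in phase 0-60, 15692 in phase 60-120, 11966 in phase 120-180, 10761.5 in phase 180-240, 11629 in phase 240-300 and 12545 in phase 300-360. Its phase 60-120 samples ran from 13248 to 20354, and 6 of 8 lay above all other first-pass samples, while the other windows overlapped one another. The difference in phase 60-120 was 1.37-fold (log2 difference 0.45, SE 0.06, adjusted p = 2.1e-08), and the fitted peak lay at 81.7 degrees (SE 12.2). HTA1 had median signals of 15066 in phase 0-60, 21640.4 in phase 60-120 and 15987 in phase 180-240, and between 17647 and 18099 in the other 3 windows. Its samples ran from 17760.1 to 27186 in phase 60-120 and from 13035 to 16755 in phase 0-60, so these 2 windows did not overlap. HTA1 was 1.28-fold higher in phase 60-120 (log2 difference 0.35, SE 0.05, adjusted p = 2.63e-07) and lower in phase 0-60 (log2 difference -0.26, SE 0.05, adjusted p = 3.05e-05). A single cosine described this short rise poorly, with an R2 of 0.114, a log2 ratio of 0.19 (SE 0.08) and an adjusted p of 0.0706. With 2 harmonics the R2 was 0.688 and the adjusted p 3.76e-10. HTA1 reached a deposited signal of 24184, where the highest of any probe set was 27583, and whether its probes were saturated was not tested.

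HTA2 s_at behaved like HTA1 and not like HTA2 at. Its median signal was 12829.9 in phase 0-60, 18194 in phase 60-120, 14375 in phase 120-180, 12418 in phase 180-240, 13401 in phase 240-300 and 13274 in phase 300-360. It was 1.36-fold higher in phase 60-120 (log2 difference 0.45, SE 0.06, adjusted p = 2.99e-09) and lower in phase 0-60, where HTA2 at was higher (log2 difference -0.17, SE 0.06, adjusted p = 0.00475). Its correlation over 49 samples was r = 0.932 with HTA1 and r = 0.657 with HTA2 at. The value for HTA2 therefore depends on the probe set, and s_at probes may read H2A transcripts of both genes, which was not tested.

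The H3 and H4 genes lay between these extremes. HHF1, the H4 gene, had a median signal of 11352 in phase 0-60, 16582 in phase 60-120, 11102 in phase 120-180, 8638 in phase 180-240, 8670.3 in phase 240-300 and 9294 in phase 300-360. All 8 samples of phase 60-120, from 14627 to 20323, lay above the highest other sample of the first pass, at 14032. HHF1 was 1.73-fold higher in phase 60-120 (log2 difference 0.79, SE 0.06, adjusted p = 7.65e-14) and its cosine peaked at 88.0 degrees (SE 5.0). HHT1, the H3 gene paired with HHF1, had 11392 to 16627 in phase 60-120 with a median of 13603, and 6166 to 7839 in phase 180-240 with a median of 7279. These windows did not overlap, and the log2 difference in phase 60-120 was 0.70 (SE 0.06, 1.62-fold, adjusted p = 3.14e-12). HHT1 and HHF1 correlated at r = 0.972.

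HHT2, the second H3 gene, had the largest fitted amplitude of the H3 and H4 genes. Its median signal was 9195 in phase 0-60, 17488 in phase 60-120, 10551 in phase 120-180, 7745 in phase 180-240, 8218 in phase 240-300 and 8008 in phase 300-360. Within phase 0-60 it spread from 6153 to 13201, and its lowest sample of all 49 was at 17.35 degrees. HHT2 was 1.98-fold higher in phase 60-120 (log2 difference 0.98, SE 0.09, adjusted p = 7e-12), with 7 of 8 samples above all others of the first pass. The cosine gave a log2 ratio of 1.04 (SE 0.11) with a peak at 99.9 degrees (SE 6.4).

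HHO1, the linker histone gene, was called high in phase 120-180 as well as in phase 60-120, as HTB2 alone was among the core genes. Its median signal was 3861 in phase 0-60, 9254 in phase 60-120, 6882 in phase 120-180, 4477 in phase 180-240, 3891 in phase 240-300 and 4046 in phase 300-360. Samples ran from 7347 to 11071 in phase 60-120 and from 5432 to 7958 in phase 120-180, and 6 of the 8 samples of phase 60-120 were above all others. The log2 difference was 0.94 in phase 60-120 (SE 0.09, 1.92-fold, adjusted p = 7.94e-12) and 0.47 in phase 120-180 (SE 0.09, 1.39-fold, adjusted p = 0.000115). HHO1 was low in phase 0-60, with a log2 difference of -0.31 (SE 0.09, adjusted p = 0.0017), and 4 samples there were below all other first-pass samples. Its cosine peak was at 117.2 degrees (SE 4.7).

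HTZ1, which encodes H2A.Z, moved much like HHO1 (r = 0.944). It had a median signal of 3603 in phase 0-60, 5927 in phase 60-120, 4908 in phase 120-180, 3446 in phase 180-240, 3103 in phase 240-300 and 2882 in phase 300-360. Its samples spread from 4342 to 6823 in phase 60-120 and from 4197 to 5718 in phase 120-180, so these windows overlapped. The log2 difference was 0.68 in phase 60-120 (SE 0.07, 1.60-fold, adjusted p = 9.45e-11) and 0.45 in phase 120-180 (SE 0.07, 1.37-fold, adjusted p = 9.64e-06). The cosine peaked at 122.2 degrees (SE 4.4) with a log2 ratio of 0.96 (SE 0.07).

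CSE4, the centromeric H3 variant, changed least of the 3. Its median signal was 1235 in phase 0-60, 1310.4 in phase 60-120, 1281 in phase 120-180, 1253 in phase 180-240, 1111 in phase 240-300 and 1154 in phase 300-360. It ran from 1162 to 1709 in phase 60-120, and only 3 of 8 samples lay above all other first-pass samples. Neighbouring windows overlapped throughout. The log2 difference in phase 60-120 was 0.22 (SE 0.06, 1.17-fold, adjusted p = 0.00101), and the adjusted p was 0.113 as deposited and 0.114 with the odd samples alone. Its highest sample was at 78.58 degrees and its lowest at 32.66 degrees. The log2 ratio of peak to trough was 0.31 (SE 0.06, adjusted p = 0.000102).

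Counted by window, the histone genes shared 1 high window, and their calls varied around it. In phase 60-120 all 7 core genes and all 3 of HHO1, HTZ1 and CSE4 were high and none was low, while 38.2% of all probe sets were high and 30.6% low. The median ratio there was 1.62-fold over the core genes, 1.60-fold over the other 3 genes and 1.05-fold over all probe sets. The log2 3' to 5' ratio of ACT1, a measure of RNA integrity, averaged 0.116 ± 0.037 in phase 60-120 (SD, n = 8) and 0.177 to 0.259 in the other windows. The same ratio of SPT15 averaged 1.157 ± 0.086 in phase 60-120, within the 1.022 to 1.184 of the other windows. Their part in the histone values was not tested.

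Before and after that window, core and other genes differed in their calls, but no test compared them within a window. The ratios given below were fitted over the whole cycle, and 97.4% of all probe sets were called in them. In phase 0-60 HTB2 was the 1 core gene high, HTA1 and HTA2 s_at were low, and HHO1 and HTZ1 were low, where 39.8% of probe sets were called high and 43.2% called low. In phase 120-180 HTB2, HHO1 and HTZ1 were high and no member was low, where 20.7% were high and 22.3% low. All 7 core genes were low in phase 180-240, with a median ratio of 0.774, where 6.84% of probe sets were low and 7.9% high. HHO1, HTZ1 and CSE4 were not called there, with adjusted p-values of 0.0851, 0.131 and 0.751. HHO1 and HTZ1 still had log2 differences of -0.22 and -0.16, where HTA1, called low, had -0.16. The count of 7 and the contrast depend on the processing. The genes called low numbered 3 as deposited, 0 with a linear term in time, 3 with the odd samples and 1 with the even samples. How many of all probe sets were low under each alternative was not counted. With the time term the log2 difference moved from -0.16 to -0.26 for HTA1 and from -0.22 to -0.59 for HHO1. Neither was called with it (adjusted p = 0.779 and 0.774). Without the samples of phase 0-60, 9 were low, and HHO1 (log2 difference -0.30, adjusted p = 0.000885) and HTZ1 (log2 difference -0.20, adjusted p = 0.0238) were then among them, while CSE4 was not (adjusted p = 0.823).

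In phase 240-300, 4 core genes (HTB2, HHT1, HHT2 and HHF1) and all 3 others were low, against 14.4% of probe sets low and 14.5% high. That count was 2 with the even samples alone and 0 with a linear term in time, where the share of all probe sets was not counted. In phase 300-360 the same 4 core genes with HHO1 and HTZ1 were low, against 13.8% low and 12.4% high. HTA1, HTA2 s_at and HTB1 were called in neither window. HTA2 at was low in both, by a log2 difference of -1.05 (SE 0.15) in phase 240-300 and -0.45 (SE 0.15) in phase 300-360.

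**Figure D2:**
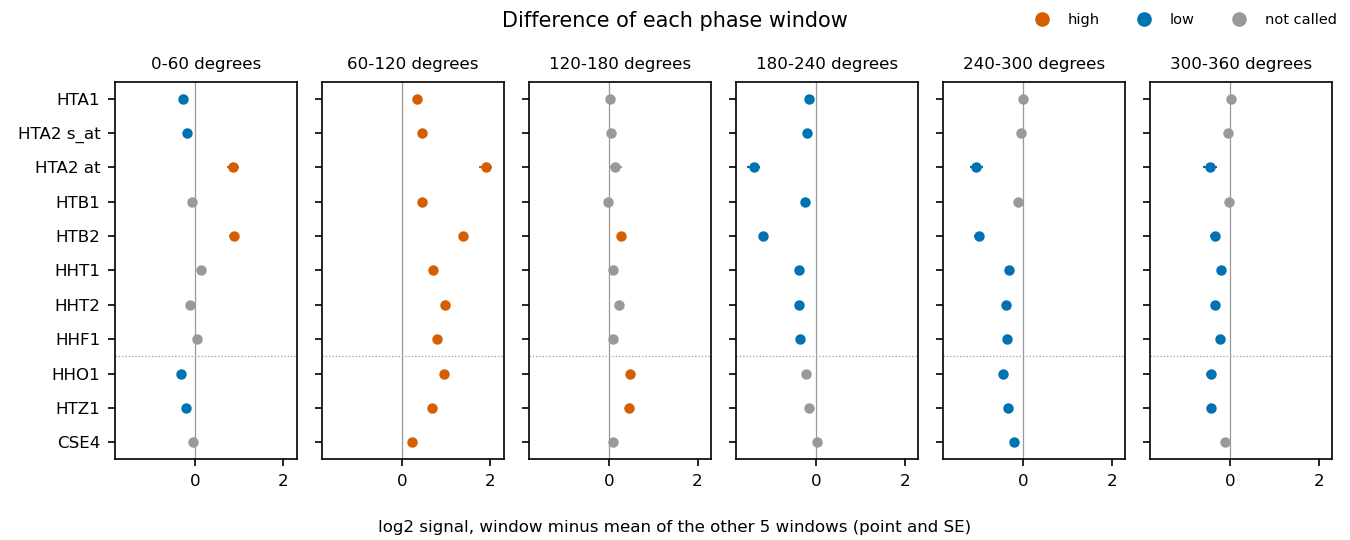
Log2 difference of each phase window from the mean of the other 5 windows (horizontal axis, log2 units, point and SE) for each histone probe set (rows), with 1 panel for each window. Colours give high, low or not called at an adjusted p under 0.05. In phase 60-120 all 11 probe sets lie to the right. In phase 180-240 the 8 core probe sets are called low. HHO1 and HTZ1 also lie to the left there, at -0.22 and -0.16, as HTA1 does at -0.16. HHO1, HTZ1 and CSE4 are not called in that window.

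The linker and variant genes were then set against the core genes in the same sample, as each log2 value minus the mean log2 value of the 7 core genes. Array scaling cancels in this ratio. HHO1, HTZ1 and CSE4 all followed a cosine in it, and so did 97.4% of all probe sets so tested, whose ratio to the core mean carries the movement of the core genes themselves. The HHO1 ratio peaked at 158.5 degrees (SE 5.3), with a fitted log2 ratio of peak to trough of 0.67 (SE 0.06, adjusted p = 2.19e-12). In log2 units from its own median, the mean ratio was -0.39 ± 0.33 in phase 0-60, against 0.23 ± 0.05 in phase 120-180 (SD, 8 samples each). The HHO1 ratio was lowest at 25 degrees and had risen to 0.13 at 55.62 degrees, both within phase 0-60, where HTB2 and HTA2 at were high. It was also low in phase 300-360, at -0.30 ± 0.14 (SD, n = 7), where HTB2 and HTA2 at were low. HTB2 is itself part of the core mean.

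The HTZ1 ratio peaked at 180.5 degrees (SE 3.7), with a log2 ratio of peak to trough of 0.59 (SE 0.04, adjusted p = 4.64e-18). It averaged 0.31 ± 0.08 in phase 120-180 (SD, n = 8) and -0.20 ± 0.10 in phase 300-360 (SD, n = 7), so these windows were apart by more than their spread. The CSE4 ratio ran nearly the other way from the core genes. Its mean was -0.48 ± 0.38 in phase 60-120, against 0.32 ± 0.12 in phase 180-240 (SD, 8 samples each), and its fitted peak was at 251.7 degrees (SE 11) with a log2 ratio of 0.56 (SE 0.10, adjusted p = 1.21e-05). All 3 fitted ratios of peak to trough, from 1.48-fold to 1.59-fold, were below the median of 1.98-fold over all probe sets. The sizes depend on the core genes used: against HTB1 and HTB2 alone the log2 ratio of peak to trough was 1.07 for CSE4 and 0.98 for HTZ1, and with HTA2 at in the core mean it was 0.90 for CSE4. With 2 harmonics it was 0.94 for CSE4, with a peak at 207 degrees.

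**Figure D3:**
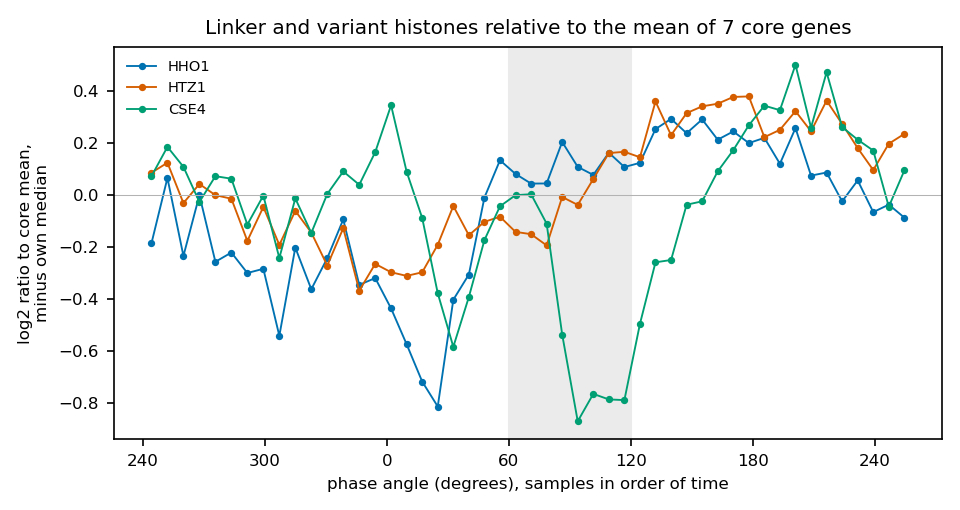
Log2 ratio of HHO1, HTZ1 and CSE4 to the mean of the 7 core genes, minus its own median (vertical axis, log2 units), against the phase angle (horizontal axis, degrees, samples in order of time), 1 point for each of 49 samples. The grey band is phase 60-120. The CSE4 ratio is lowest at 93.89 degrees and highest at 201.05 degrees, and the HHO1 ratio is lowest at 25 degrees.

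Copies of the same histone were compared by the ratio of their signals in each sample, a test added after the values had been seen. Only the change of the ratio with phase is given, since different probe sets do not share a scale of level. HTA2 at over HTA1 had a fitted log2 ratio of peak to trough of 2.55 (SE 0.09, 5.84-fold, adjusted p = 2.94e-27) with a peak at 69.8 degrees, and 81.7% of probe sets were called in their ratio to HTA1. HTB2 over HTB1 had 1.87 (SE 0.07, 3.65-fold, adjusted p = 4.57e-28) with a peak at 70.4 degrees, where 88.4% were called. HHT2 over HHT1 changed far less, with 0.32 (SE 0.08, adjusted p = 0.0017), where 97.5% were called. By these probe sets the H2A and H2B copies followed different courses within a cycle, with HTA2 at and HTB2 the more variable of each pair. For H2A this holds for HTA2 at only. HTA2 s_at, which stands for the gene in counts, correlated with HTA1 at r = 0.932, and its ratio to HTA1 was not fitted. Between single samples the HTA2 at to HTA1 ratio changed 6.99-fold, that of HTB2 to HTB1 4.23-fold and that of HHT2 to HHT1 2.20-fold. Cross-hybridization between copies would be part of each signal, and its size was not tested. Whether saturation flattened the strong HTA1 signal was not tested either.

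**Figure D4:**
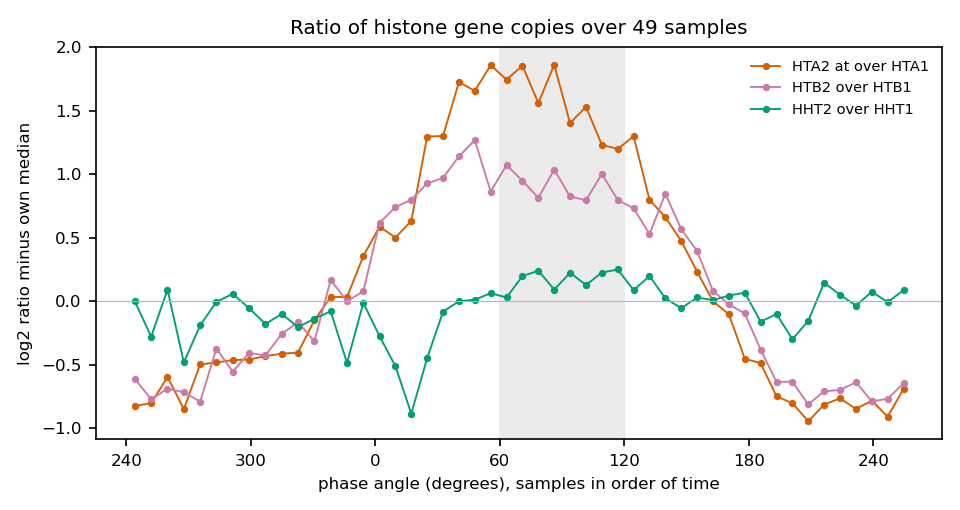
Log2 ratio of each histone gene copy to its partner, minus its own median (vertical axis, log2 units), against the phase angle (horizontal axis, degrees, samples in order of time), 1 point for each of 49 samples. The grey band is phase 60-120. The ratios of HTA2 at to HTA1 and of HTB2 to HTB1 change 6.99-fold and 4.23-fold between their lowest and highest samples, and that of HHT2 to HHT1 2.20-fold.

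Divergent neighbours were not all equally alike. HTA2 at with HTB2 and HHT1 with HHF1 had the highest correlations among the core probe sets, as given above, but HTA1 and HTB1 correlated at r = 0.776, below the r = 0.818 of HTB1 with HHF1. Copies of the same histone correlated at r = 0.428 for HTA2 at with HTA1, r = 0.688 for HTB2 with HTB1 and r = 0.889 for HHT2 with HHT1. CSE4 correlated with the other probe sets at r = 0.118 to 0.539, but at 0.470 to 0.675 as deposited and at 0.369 to 0.671 after quantile normalization. These correlations describe 49 samples of 1 culture that share arrays, and carry no test.

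Timing was read from a running median of 3 samples, as the span of phase over which a probe set lay above the midpoint of its own log2 range. HTB2 had the longest span, from 2.04 to 155.12 degrees or 100 min. HTA2 at followed with 17.35 to 147.47 degrees, and HHT1 with 17.35 to 139.82 degrees. HHT2 and HHF1 both spanned 40.31 to 139.82 degrees, or 65 min. The spans of the less variable H2A and H2B sets were shorter, with 45 min for HTB1, 40 min for HTA2 s_at and 20 min for HTA1. HHO1 spanned 47.97 to 162.78 degrees and HTZ1 55.62 to 178.09 degrees. Both ended later than every core probe set, but HHO1 ended only at the sample next after the end of HTB2. After quantile normalization the spans of HHO1 and HTA1 both ended at 193.39 degrees, and that of HTZ1 ended at 178.09 degrees. CSE4 was above its midpoint for only 20 min, from 55.62 to 86.24 degrees. The peak of the running median lay between 70.93 and 101.55 degrees for the 11 probe sets, but between 55.62 and 101.55 degrees as deposited and between 63.27 and 109.2 degrees after quantile normalization. No order of peaks among the core genes is therefore given.

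**Figure D5:**
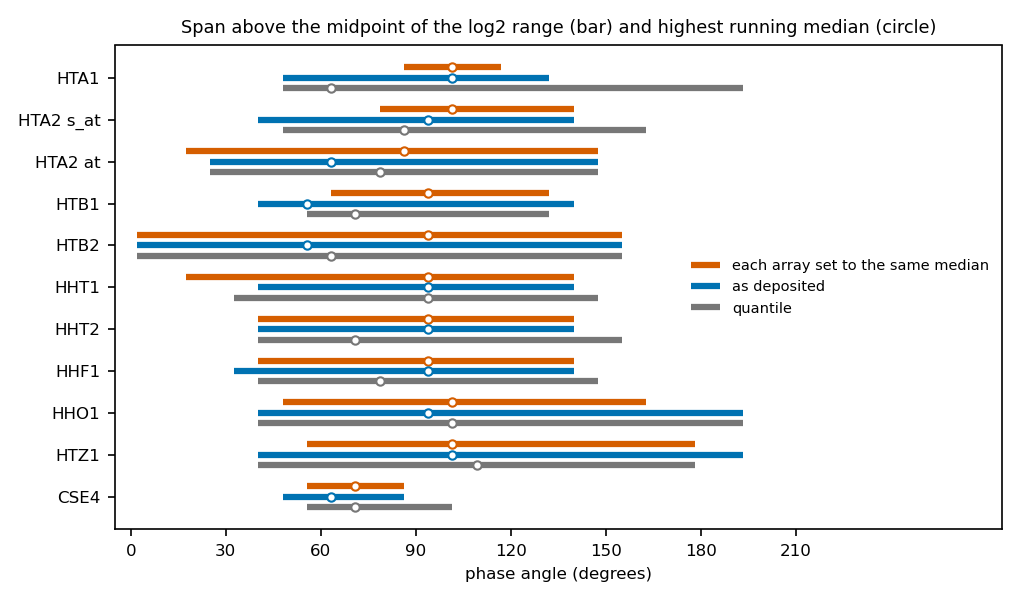
Span of phase angle (horizontal axis, degrees) over which the running median of each histone probe set (rows) lay above the midpoint of its log2 range, with a circle at its highest point, under 3 scalings. The span of HTB2 is the same under all 3, from 2.04 to 155.12 degrees, while that of HTA1 moves from 20 min to 95 min.

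Genes that act on histones were read from lists of related genes, each by how many of its members passed the same tests. Of 15 S phase genes, 14 were high in phase 0-60 and none was low, against 39.8% and 43.2% of all probe sets. In phase 60-120, 4 of them were high and 2 low (38.2% and 30.6% of all), and in phase 120-180, 13 were low and none was high (22.3% and 20.7% of all). Their highest samples lay between 17.35 and 55.62 degrees, with a median of 40.31 degrees. On the same scale the highest samples of the histone probe sets were later, at 78.58 degrees for CSE4 and 93.89 degrees for the others. The S phase genes were not read on the other scales, on which the histone peaks moved. The 3 with the largest fitted ratio were CLB6, an S phase cyclin, with 5.20-fold and a peak at 37.1 degrees, RNR1, the large subunit of ribonucleotide reductase, with 4.67-fold, and POL30, the sliding clamp of DNA polymerase, with 3.03-fold. HTB2 and HTA2 at were thus the histone probe sets high in the window in which nearly all S phase genes were high.

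Of 12 regulators of histone genes, 9 cycled, a smaller share than the 88.5% of all probe sets. In phase 0-60, 5 were high and 5 low, and in phase 60-120, 4 were high and 3 low, both near the shares over all probe sets given above. The largest fitted ratios were those of ASF1, a histone chaperone that also acts with the HIR complex, with 2.05-fold and a peak at 339.2 degrees, SWI6, a subunit of the G1/S transcription factors, with 1.85-fold and a peak at 123.4 degrees, and RTT106, a histone chaperone, with 1.61-fold and a peak at 14.8 degrees. Of 15 histone chaperones, 14 cycled, against 88.5% of all probe sets. In phase 0-60, 9 were high and 2 low, against 39.8% and 43.2% of all, and in phase 60-120, 3 were high and 9 low, against 38.2% and 30.6% of all. FPR4, a proline isomerase that acts on histones, had the largest ratio at 3.12-fold, with a peak at 329.3 degrees, and CAC2, a subunit of chromatin assembly factor 1, had 1.95-fold. ASF1 and RTT106 are in both lists. The peaks given are those of the cosine, and the highest single samples could lie elsewhere. They were at 40.31 degrees for ASF1, 93.89 degrees for SWI6, 25 degrees for RTT106 and 17.35 degrees for FPR4.

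Among 10 enzymes that modify histones or control their turnover, 9 cycled, near the 88.5% of all probe sets. HST3, a deacetylase of H3, had 3.45-fold with a peak at 180.4 degrees, HST4, a related deacetylase, 2.31-fold with a peak at 293.9 degrees, and RAD53, a kinase that also acts in the degradation of excess histones, 2.02-fold with a peak at 6.2 degrees. The highest single samples were at 170.43 degrees for HST3, 25 degrees for HST4 and 32.66 degrees for RAD53. Of the list, 3 were high and 3 low in phase 60-120, near the 38.2% and 30.6% of all probe sets.

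The SWR1 complex exchanges H2A for H2A.Z, and 12 of its 13 listed genes cycled, near the 88.5% of all probe sets. In phase 60-120, 4 were high and 5 low (38.2% and 30.6% of all), and in phase 120-180, 3 were high and none was low (20.7% and 22.3% of all). Their fitted peaks were spread over the cycle. BDF1 peaked at 204.2 degrees with 1.46-fold and SWC5 at 283.4 degrees with 1.41-fold, while ARP6 peaked at 122.0 degrees, where HTZ1 did, with 1.11-fold, and was named after its value was seen. The highest single samples were at 116.85 degrees for BDF1, 291.3 degrees for SWC5 and 78.58 degrees for ARP6. SWC7 had 2.05-fold, at a signal of only 5.01 to 62.1. Of 13 proteins bound at centromeres with Cse4, 11 cycled, against 88.5% of all probe sets, and 9 were high and 1 low in phase 60-120, against 38.2% and 30.6% of all. MIF2, an inner kinetochore protein, had 1.74-fold with a peak at 35.0 degrees. CTF13, a subunit of the centromere DNA binding complex, had 1.51-fold with a peak at 74.9 degrees. MCM21, another kinetochore protein, had 1.51-fold with a peak at 176.9 degrees. Their highest single samples were at 47.97 degrees for MIF2, 70.93 degrees for CTF13 and 116.85 degrees for MCM21.

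The genes most like the histones were found by Pearson correlation over 49 samples, as a description with no test. With the mean of the 7 core genes, HAC1, the transcription factor of the unfolded protein response, correlated at 0.914, GAS3, of a family of cell wall glucan enzymes, at 0.913, SIM1 at 0.907, SPC98, a subunit of the gamma-tubulin complex, at 0.907, and the corepressor CYC8 at 0.906. Nearest to HHO1 were the RNA-binding protein gene HEK2 at 0.961, MBA1, which acts with mitochondrial ribosomes, at 0.957, and the alpha-tubulin gene TUB1 at 0.953. HTZ1 was nearest to HEK2 at 0.955, the spindle checkpoint kinase gene MPS1 at 0.954 and TUB1 at 0.952, so HHO1 and HTZ1 shared 2 of their 3 nearest genes. CSE4 had weaker neighbours, the amino acid permease gene DIP5 at 0.839 and the mitochondrial carnitine carrier gene CRC1 at 0.797. The mitochondrial import gene TIM9 followed at 0.770. HAC1, GAS3, SIM1, CYC8, HEK2 and TUB1 were highest in the sample at 93.89 degrees, as most histone probe sets were. SPC98, MBA1, MPS1 and the neighbours of CSE4 were highest in other samples. The correlations were not repeated without that sample or on other scales.

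The second pass gave a look at how closely histone signals returned after a cycle. HTB2 had 3656 and 3834 in the second pass, against 3779 and 3547 in the first 2 samples, at 244.11 and 251.97 degrees. HTA2 at had 1485 and 1666 in the second pass, against 1595 and 1624 in the first 2 samples. These values overlapped. HTZ1 had 3412 and 3442 in the second pass, against 3252 and 3154 in the first 2 samples, the 1 probe set that was higher without overlap. HTA1, HHT1 and CSE4 were lower without overlap. The share of all probe sets without overlap was not counted, so these cases are not read as a trait of the histones. Over the 11 histone probe sets the ratio ran from 0.922 for CSE4 to 1.07 for HTZ1. For comparison, the absolute log2 difference between the passes had a median of 0.06 and a 90th percentile of 0.19 over all probe sets tested. No test was made, since 2 samples against 2 cannot pass a permutation test.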

How the data were processed

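RNA was amplified with oligo(dT) primers and labelled with biotin, per the labels' protocols. The authors deposited a linear probe-set intensity, and the submitters' processing notes name GCOS, with version and settings not given in the sources used here. Of 10928 probe sets, 5498 are of S. cerevisiae genes, and each array was scaled to a median of 1890.55 over these. Log2 was taken with a lower bound of 1. A probe set entered the tests if its median signal was above 11.2, which is the 75th percentile for probe sets of another yeast species, and 5470 did. Tests used limma 3.58.1 in R 4.3.3 (lmFit, eBayes, Benjamini-Hochberg adjustment at 0.05) and were tested on simulated data. Other steps ran in Python 3.11.15 with pandas 2.3.3 and numpy 2.4.6, and plots in matplotlib 3.10.9.

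The members and gene lists were chosen with earlier results of these data known. Named besides the members were the 3 called genes of each list with the largest fitted ratio, the 5 genes nearest to the core mean and the 3 nearest to each other histone. Alternatives were the deposited values, quantile normalization, other filters, an offset of 16, a trended variance, 2 harmonics, terms in time or array number, subsets of samples, and other core references. Leaving out the sample at 93.89 degrees and the ratios between copies were added after the data were seen. Gene neighbours came from a RefSeq gene table. The number of arrays limits the precision.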

Additional observations from a re-analysis of the deposited data

Results flagged for a closer look

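Of 66 groups of a probe set and a window, 5 held 1 sample that stood far from the others by Dixon's test at 95%, and chance alone marks about 1 in 20 groups. HHF1 in phase 180-240 was lowest at 7532 at 216.36 degrees, where the next sample had 8321. HHT2 had its lowest sample of phase 180-240 at 6643 at 201.05 degrees, with the next at 7642, and its lowest of phase 300-360 at 6526 at 346.37 degrees, with the next at 7989.6. HTA1 in phase 240-300 was lowest at 16255 at 259.84 degrees, with the next at 17419. HTA2 at in phase 180-240 was highest at 1837 at 185.74 degrees, at the edge of the window, with the next at 1548. The array also holds probe sets for histones of another yeast species, which are outside the comparisons. That of hta1 had a median deposited signal of 125.7 over the 49 samples, while the other 8 had medians between 7.0 and 23.5 and all probe sets of that species a median of 6.2. Its cause was not tested.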

How the results depend on the processing

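The count of histone genes high in phase 60-120 was 10 in the main setting and 9 as deposited and with the odd samples. It was 10 under the other alternatives run. The ratios of HHO1, HTZ1 and CSE4 to the core mean were called under all of theirs, as most probe sets were. In the main setting 5320 of 5462 probe sets were called in that ratio, and 4408 to 5433 were called under the alternatives. Array scaling cancels in it, so the deposited values repeat the main result. The log2 ratio of peak to trough ran from 0.55 to 0.93 for HHO1, from 0.50 to 0.98 for HTZ1 and from 0.44 to 1.07 for CSE4. The fitted peaks, over the alternatives that give one, ran from 138 to 191.3 degrees for HHO1, from 175.8 to 206.2 degrees for HTZ1 and from 207 to 270.5 degrees for CSE4. The count of genes low in phase 180-240, 7 in the main setting, was 3 as deposited, 0 with a linear term in time, 3 with the odd samples and 1 with the even samples, and it was 9 without phase 0-60, with HHO1 and HTZ1 among them. The count low in phase 240-300, also 7, was 0 with a linear term in time and 2 with the even samples. For these window counts the share of all probe sets under each alternative was not counted. The time term follows the phase angle closely over 1 cycle. With it, HHT2 had a log2 difference of 0.21 in phase 240-300 and 0.024 in phase 300-360, of opposite sign and not called. For single probe sets, 185 cycling results kept their call, 5 gained one, all of HTA1, and 8 lost it, all with 1 of every 3 samples, in HTA2 s_at, HTB1 and CSE4. Of the window results, 684 kept their call, 10 gained one, 85 lost it and 2 turned. No paired analysis was possible because the windows hold successive samples of 1 culture with no shared replicate labels. All 11 histone probe sets also passed the stricter filter, a median signal over 100.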
